A study of Mus musculus with 7 samples.

Results

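The genes described here are markers of pancreatic duct cells: the keratins Krt19, Krt7 and Krt18, the transcription factors Sox9 and Onecut1, the chloride channel Cftr, the secreted phosphoprotein Spp1, the mucin Muc1 and the carbonic anhydrase Car2. They were taken by gene symbol from a table of log2 signals, and 8 of the 9 were measured, among 22180 genes tested in all. Spp1 was not matched to a probe set and is not analysed here. The signals came from mouse pancreatic islets, isolated by collagenase digestion and hybridised to whole-transcript arrays, with islets of 3 mice aged 2 months pooled on each of 7 arrays. The control group (3 arrays) was Gata6 flox/flox. The group labelled Gata6 KO (4 arrays) was Gata6 flox/flox;Pdx1-Cre. Both groups therefore carried the floxed Gata6 alleles. Pdx1-Cre drives Cre from the promoter of Pdx1, and the controls carried no Cre, so an effect of Cre and one of Gata6 cannot be told apart. The replicates were separate pools of mice, and their number limits the precision.

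Pancreatic ducts carry the enzymes of the acinar cells to the gut and add a bicarbonate-rich fluid, which depends on the chloride channel CFTR, on chloride-bicarbonate exchangers and on carbonic anhydrase. Duct cells contain simple-epithelial keratins, whose filaments are built from pairs of a type I keratin (KRT18, KRT19) and a type II keratin (KRT7, KRT8). SOX9 and ONECUT1 (HNF6) are transcription factors of the embryonic pancreatic epithelium that stay on in ducts. Acinar, ductal and endocrine cells all descend from progenitors that express Pdx1, so the Cre used here can act in each of these lineages. Several of the markers are not confined to ducts, and KRT18, KRT8 and MUC1 are also found in acinar cells.

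The markers did not move as 1 block. On the arrays labelled Gata6 KO, Muc1 and Krt18 were each about 2.1-fold higher and Car2 was 1.66-fold higher, relative to the median of all genes. Krt7 was 1.98-fold lower. Krt19, Sox9, Onecut1 and Cftr did not pass the test. That makes 4 of 8 past the threshold (limma, p adjusted over all genes by Benjamini and Hochberg and under 0.05), against 24.7% of all genes. By direction, 3 of 8 were higher (37.5%) and 1 lower (12.5%), against 17.4% of all genes higher and 7.36% lower. With so few markers these shares are a description only. For 3 of the 8 markers the groups lay fully apart, all with the arrays labelled Gata6 KO above, against 34.3% of all genes in either direction, 24.4% in that one and 9.96% in the other. The median difference of the 8 markers was 0.28 on the log2 scale, relative to all genes.

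Some facts of the whole series bear on these values. Taken over all genes the median difference was 0.17 log2 units, and differences below are given minus that shift unless called unshifted, while the SE and p belong to the unshifted difference. Of all genes 3853 were higher and 1633 lower, against 1870 and 2769 (8.43% and 12.5%) after centring each array on its median. The signal of Gata6 itself went against the labels, at 4.60, 4.80 and 4.83 in the controls and 5.41, 5.35, 5.34 and 5.01 under the label Gata6 KO (unshifted difference 0.54, SE 0.20, limma adjusted p = 0.0622). The sources used here do not place the probes against the deleted part, so this may check nothing. Directions below are those of the labels. Control array 3 and the array labelled Gata6 KO 3 stood apart in Xist, the RNA of the inactive X chromosome, with log2 signals of 1.34 and 2.15 against 5.02 to 5.60 on the other 5 arrays. On those 5 arrays Muc1, Krt18 and Sox9 were higher and Krt7 and Car2 did not pass, against 10.1% of all genes higher and 4.99% lower. In tissue of mixed cells, fewer cells of a type and less RNA per cell cannot be told apart.

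**Figure D1:**
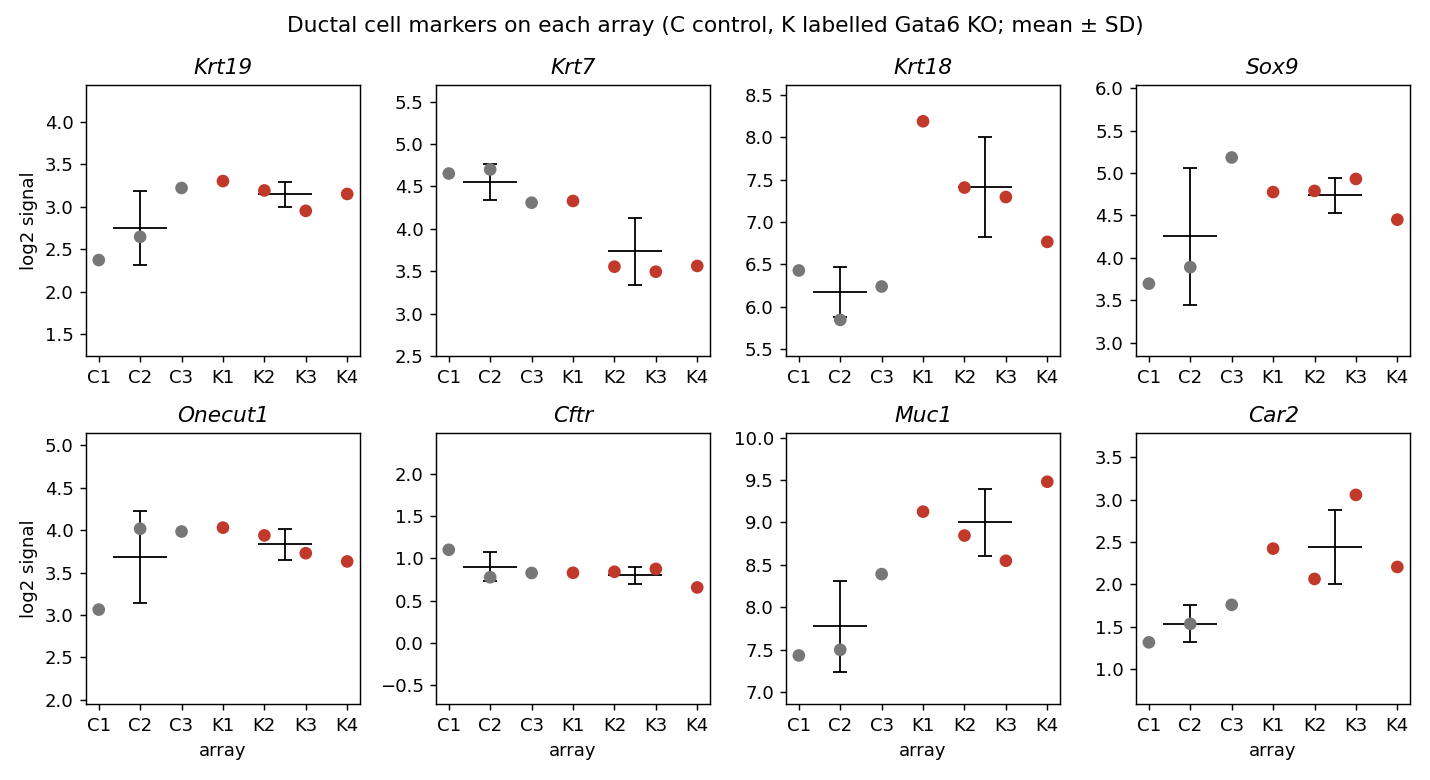
Log2 signal of the 8 measured duct markers on each array (y axis; every panel spans 3.2 log2 units on its own range), with control arrays in grey (C1 to C3) and arrays labelled Gata6 KO in red (K1 to K4), and black bars for mean ± SD of each group. Krt18, Muc1 and Car2 lie higher on every red array than on any grey one, Krt7 lies lower on K2 to K4, and control array 3 stands at 5.18 for Sox9 against 3.70 and 3.89 on the other controls.

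Keratins of simple epithelia parted in direction. Krt18, the type I keratin of nearly all simple epithelia, had log2 signals of 6.43, 5.85 and 6.24 in the controls and 8.19, 7.41, 7.29 and 6.77 on the arrays labelled Gata6 KO. Every array labelled Gata6 KO lay above every control array, and array 1 was the highest. The difference was 1.08 (SE 0.28, limma adjusted p = 0.00606), or 2.11-fold with a 95% interval from 1.38-fold to 3.22-fold. The exact two-sided permutation test of the group means gave p = 0.0571, where the smallest p that 35 splits of the arrays allow is 0.0286. Krt18 kept its call under all 17 alternatives of scaling, modelling and arrays, with adjusted p from 3.37e-04 to 0.041. Its size depended on the probe set: when probe sets of 1 gene were averaged the difference was 0.60 relative to all genes (adjusted p = 0.0401). The second probe set of Krt18 gave 4.55, 4.11 and 3.73 in the controls and 4.91, 4.34, 3.85 and 4.59 on the others, groups that overlap. Over all 41345 probe sets its difference was 0.12 relative to their median (SE 0.30, limma adjusted p = 0.545), against 1.07 (SE 0.32, adjusted p = 0.0287) for the first. Which stretches of the transcript the 2 probe sets cover is not known here.

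Krt7, a type II keratin of ducts and other glandular epithelia, went the other way. Its log2 signal was 4.65, 4.70 and 4.31 in the controls and 4.33, 3.55, 3.49 and 3.56 on the arrays labelled Gata6 KO. Arrays 2 to 4 of that group lay below all controls, while array 1 lay just above control array 3, so the groups overlap at that point. The fall was 0.99 on the log2 scale, a difference of -0.99 (SE 0.24, limma adjusted p = 0.0244; exact permutation p = 0.0857). This call was lost in several fits with fewer arrays, although the size of the difference changed little. Leaving out control array 1 or 2 ended it (adjusted p = 0.0934 and 0.101), as did leaving out array 2 or 3 of those labelled Gata6 KO (adjusted p = 0.0624 and 0.0551), and it was lost on the 5 arrays with high Xist (adjusted p = 0.0675). Relative to all genes the difference was -0.91 to -1.04 in these 5 fits, with an SE of 0.25 to 0.29. The difference kept its sign throughout, and its adjusted p ranged from 0.00493 to 0.101 over 17 alternatives.

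Krt19, the keratin most often used to stain ducts, did not pass the test. Its log2 signal was 2.37, 2.65 and 3.22 in the controls and 3.30, 3.19, 2.95 and 3.15 on the arrays labelled Gata6 KO. The latter were close together (SD 0.15, n = 4), and control array 3 lay inside their range. The difference was 0.24 (SE 0.23, limma adjusted p = 0.229), with a 95% interval from 0.832-fold to 1.67-fold. The intervals of Krt19 and Krt18 overlap, and their difference was not tested.

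Krt8, the type II partner of Krt18, comes from a list of further keratins and moved as Krt18 did. It measured 5.27, 5.76 and 5.22 in the controls and 7.35, 6.92, 6.36 and 6.51 on the arrays labelled Gata6 KO, a 2.30-fold difference (1.20, SE 0.25, limma adjusted p = 0.00155). Array 1 was again the highest. Of 5 measured further keratins 2 rose (40%, against 17.4% of all genes), Krt8 and Krt17 (0.67, SE 0.24, adjusted p = 0.0214). At an unadjusted p under 0.05 the count was also 2 higher and 0 lower, against 26.4% and 11% of all genes. Krt17 measured 0.95, 0.50 and 1.27 in the controls and 1.82, 2.16, 1.81 and 1.20 on the others, so the groups overlap and all signals were low. Its call was lost after centring, after repeated quantile normalization and without control array 1, control array 2 or array 2 of those labelled Gata6 KO (adjusted p up to 0.125). Krt23 measured 2.03 to 3.58 on the control arrays and 2.20 to 4.46 on the others (0.44, SE 0.44, adjusted p = 0.343), and passed only on the 5 arrays with high Xist (unshifted 1.41, adjusted p = 0.026).

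A difference between genes within an array is free of a constant shift of that array, as centring applies, though not of quantile normalization. Krt18 minus Krt7 was 1.78, 1.15 and 1.93 log2 units in the controls and 3.86, 3.85, 3.80 and 3.20 on the arrays labelled Gata6 KO, with no overlap. Krt8 minus Krt7 behaved the same, at 0.62 to 1.06 on the control arrays and 2.87 to 3.36 on the others. Krt18 minus Krt19 overlapped, at 3.02 to 4.06 in the controls and 3.61 to 4.89 on the others, as did Krt18 minus Krt8, at 0.08 to 1.16 and 0.25 to 0.93. These 4 pairs were chosen after their values were seen, were not tested and are a description only.

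Promoter sequences of Krt18, Krt8 and Krt7 are shown because the first pair rose while Krt7 fell, and all 3 lie in the keratin cluster on chromosome 15, where no protein-coding gene separates Krt8 from Krt18. Each window is the 250 bases before the gene's start in RefSeq, build GRCm38.p6, written 5′ to 3′ on the gene's strand: chr15:102027966-102028215 on the plus strand, chr15:102004343-102004592 on the minus strand and chr15:101412153-101412402 on the plus strand. Capitals mark matches on either strand to any of 6 motifs. A GATA word is spelled AGATAA, with variants that end instead as AGATAG or begin with T, namely TGATAA and its variant TGATAG. An Onecut word is spelled ATTGAT with the variant ATTGAC, and a Sox word is spelled ACAATG with the variant ACAATA. The other motifs are the TATA word TATAAA, the GC box GGGCGG and the E-box CAGCTG.
Krt18: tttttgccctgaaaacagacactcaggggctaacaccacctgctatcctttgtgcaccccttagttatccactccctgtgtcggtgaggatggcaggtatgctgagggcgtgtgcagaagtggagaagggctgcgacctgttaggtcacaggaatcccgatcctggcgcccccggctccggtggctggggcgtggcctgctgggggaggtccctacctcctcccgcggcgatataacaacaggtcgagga
Krt8: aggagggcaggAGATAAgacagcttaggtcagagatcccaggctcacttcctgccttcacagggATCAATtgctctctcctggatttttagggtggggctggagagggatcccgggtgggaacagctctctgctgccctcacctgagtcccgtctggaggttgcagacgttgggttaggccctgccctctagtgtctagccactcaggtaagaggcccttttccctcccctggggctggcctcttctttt
Krt7: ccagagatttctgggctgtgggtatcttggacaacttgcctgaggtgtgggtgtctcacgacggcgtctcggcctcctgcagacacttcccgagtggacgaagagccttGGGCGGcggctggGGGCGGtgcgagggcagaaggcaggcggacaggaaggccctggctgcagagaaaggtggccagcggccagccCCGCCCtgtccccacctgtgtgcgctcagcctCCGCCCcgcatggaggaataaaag

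The Krt18 window held none of these words. The Krt8 window held 1 GATA word, AGATAA, at -239 to -234 from the start, and 1 Onecut word at -186 to -181 on the opposite strand. GATA words occur in 26.5% of all 32851 windows of this length and Onecut words in 11.6%. The Krt7 window held 4 GC boxes and no other of the words, and a GC box occurs in 32.7% of windows. GC content was 60.4%, 58% and 66% in the order printed, against a median of 52.4% over all windows. These matches describe letters and not bound sites.

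Neither Sox9 nor Onecut1 passed the test. Sox9 measured 3.70, 3.89 and 5.18 in the controls and 4.78, 4.79, 4.93 and 4.45 on the arrays labelled Gata6 KO. Control array 3 lay above every other array, and the control SD of 0.81 (n = 3) was the widest of the 8 markers in either group. The difference was 0.31 (SE 0.31, limma adjusted p = 0.274; exact permutation p = 0.314), with a 95% interval from 0.789-fold to 1.96-fold. Control array 3 decided this: without it the unshifted difference went from 0.48 to 0.94 and passed (adjusted p = 0.0184). It also passed on the 5 arrays with high Xist (0.88, adjusted p = 0.0342), while with the Xist level as a block in the fit of all 7 arrays it did not (0.55, adjusted p = 0.119). The same control array was the highest control for Krt19, Muc1 and Car2 as well, and control array 1 the lowest for these 4 and for Onecut1.

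Onecut1 measured 3.06, 4.02 and 3.99 in the controls and 4.03, 3.94, 3.73 and 3.63 on the arrays labelled Gata6 KO. Only control array 1 stood apart, below all the others. The difference was -0.022 (SE 0.25, limma adjusted p = 0.718), with a 95% interval from 0.676-fold to 1.44-fold. The unshifted difference of 0.14 changed sign after centring (-0.085), after repeated quantile normalization (-0.080) and without control array 1 (-0.17).

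Of the fluid secretion markers, Car2 rose and Cftr did not pass the test. Cftr, the chloride channel of the duct's apical membrane, gave 1.10, 0.78 and 0.83 in the controls and 0.83, 0.84, 0.88 and 0.66 on the arrays labelled Gata6 KO. Its mean signal was at the 7.25th percentile of all genes, among the lowest signals on the array. The difference was -0.27 (SE 0.15, limma adjusted p = 0.651), with a 95% interval from 0.669-fold to 1.03-fold. Car2, a cytosolic carbonic anhydrase that supplies bicarbonate, measured 1.32, 1.54 and 1.76 in the controls and 2.42, 2.07, 3.06 and 2.21 on the others, without overlap. Car2 was 1.66-fold higher (0.73, SE 0.25, limma adjusted p = 0.0176; exact permutation p = 0.0286, the smallest possible). Its signals were also low, with a mean at the 41.9th percentile, and percentiles across genes depend on each probe set's response. The Car2 call was lost after centring (adjusted p = 0.0673) and after repeated quantile normalization (adjusted p = 0.0726). It was also lost without control array 1 (adjusted p = 0.0912) or control array 2 (adjusted p = 0.0603), and on the 5 arrays with high Xist (adjusted p = 0.0518).

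Muc1, a membrane mucin of the apical surface, measured 7.43, 7.50 and 8.39 in the controls and 9.13, 8.85, 8.55 and 9.48 on the arrays labelled Gata6 KO. The groups did not overlap, although control array 3 came close to the lowest array labelled Gata6 KO. The difference was 1.06 (SE 0.27, limma adjusted p = 0.00449; exact permutation p = 0.0286), or 2.09-fold with a 95% interval from 1.40-fold to 3.10-fold. Without control array 3 the unshifted difference went from 1.23 to 1.54, and on the 5 arrays with high Xist to 1.69. Muc1 kept its call under all 17 alternatives, with adjusted p from 7.59e-04 to 0.0385.

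The 250 bases before the start of Muc1, chr3:89228806-89229055 on the plus strand of GRCm38.p6, are shown as the promoter of the marker with the smallest p, with the same words in capitals.
Muc1: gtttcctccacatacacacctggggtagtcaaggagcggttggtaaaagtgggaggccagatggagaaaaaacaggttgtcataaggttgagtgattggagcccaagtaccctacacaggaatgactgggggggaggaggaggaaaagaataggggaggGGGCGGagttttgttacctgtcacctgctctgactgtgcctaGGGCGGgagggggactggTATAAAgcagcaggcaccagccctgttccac

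This window held a TATAAA word at -31 to -26, which 12.4% of all windows hold somewhere, and 2 GC boxes. It held no GATA, Onecut or Sox word as spelled above. Windows were available for 5 of the 8 measured markers. Those of Cftr and Onecut1 held 6 and 2 GC boxes and no other of the words.

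**Figure D2:**
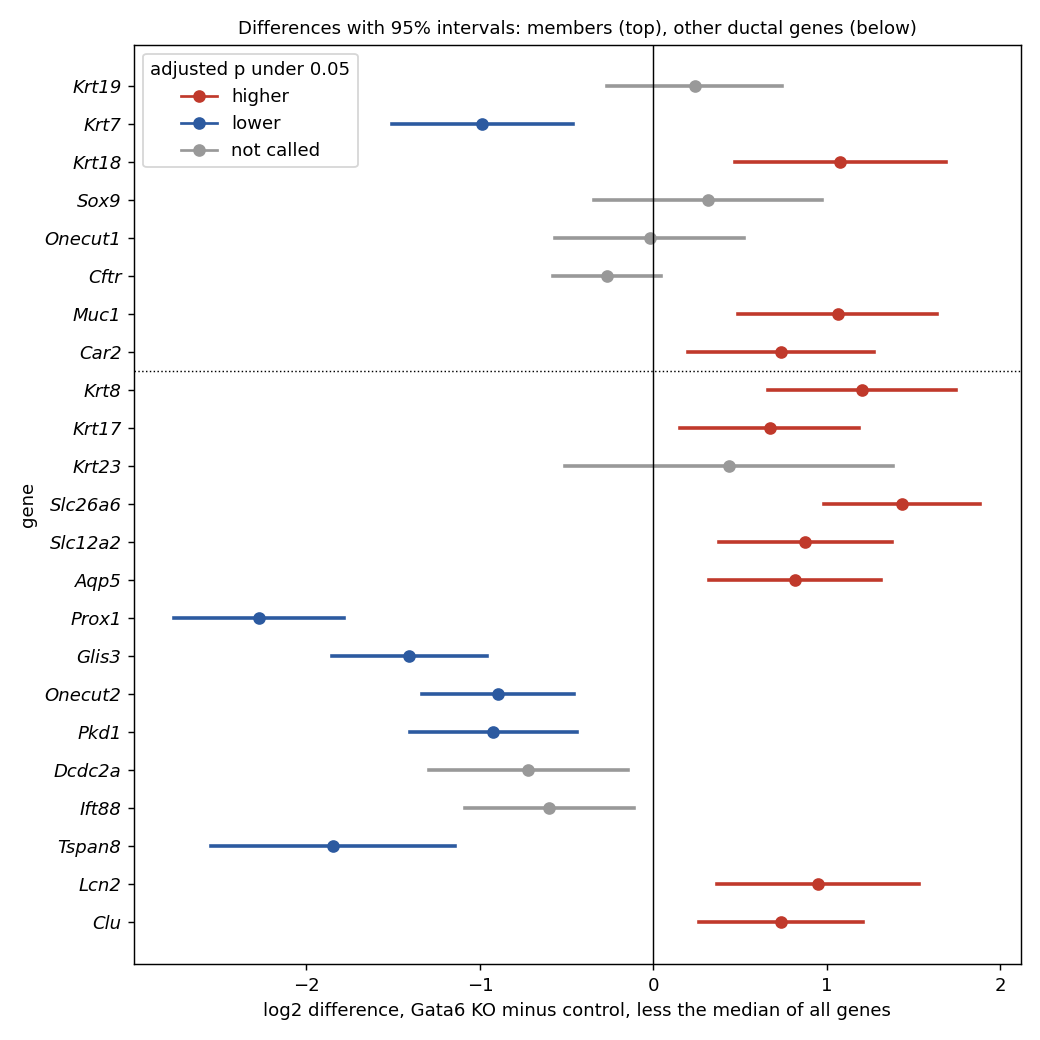
Log2 difference, arrays labelled Gata6 KO minus control, less the median difference of all genes (x axis), with 95% intervals from limma, for the 8 duct markers (above the dotted line) and 15 further ductal genes with the smallest p of each role (below it). Red and blue mark genes past the threshold in each direction and grey those that were not: Krt18 (1.08) and Muc1 (1.06) lie to the right, Krt7 (-0.99) to the left, and the transcription factors Prox1 (-2.27) and Glis3 (-1.41) furthest left with Tspan8 (-1.85).

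A wider list of 50 ductal genes in 5 roles, 44 of them measured, gave 10 higher and 7 lower, or 22.7% and 15.9%, beside the 17.4% and 7.36% of all genes given above. The median difference was 0.14. The count of higher genes fell to 5 after centring and without control array 1 or control array 2. Calls over all genes fell in the same fits, from 3853 higher to 1870, 2246 and 2395. The count of lower genes fell to 3 without control array 1, to 4 without control array 2 and to 4 on the 5 arrays with high Xist. Over all genes the lower count went from 1633 to 1019, 1191 and 1106 in these fits. At an unadjusted p under 0.05, the cut used beside counts of 0 below, 26.4% of all genes were higher and 11% lower. Genes named below are mostly those with the smallest p of each role.

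Ion and water transport genes of ducts had 3 of 12 higher (25%, against 17.4% of all genes) and 0 lower, and 5 and 0 at an unadjusted p under 0.05. With 12 genes, that share is near the one for all genes. Slc26a6, an apical chloride-bicarbonate exchanger that works beside CFTR, measured 3.28, 3.20 and 3.73 in the controls and 4.85, 5.10, 4.91 and 5.14 on the arrays labelled Gata6 KO. It was 2.70-fold higher (1.43, SE 0.21, limma adjusted p = 1.23e-04), with no overlap. The basolateral chloride importer gene Slc12a2 differed by 0.88 (SE 0.23, adjusted p = 0.00531), from 5.01 to 5.34 on the control arrays to 5.67 to 6.63 on the others. The water channel gene Aqp5 differed by 0.82 (SE 0.23, adjusted p = 0.00739), from 2.22 to 2.90 on the control arrays to 3.43 to 3.86 on the others. Without control array 2 Aqp5 no longer passed (adjusted p = 0.0543).

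Transcription factors other than Sox9 and Onecut1 had 3 of 7 lower (42.9%) and 0 higher, against 7.36% and 17.4% of all genes. The counts were the same at an unadjusted p under 0.05. With 7 genes this is a description only. Prox1, a homeobox factor of the pancreatic epithelium and of other tissues, measured 5.27, 4.74 and 4.73 in the controls and 2.88, 3.01, 2.43 and 2.91 on the arrays labelled Gata6 KO. It was 4.83-fold lower (-2.27, SE 0.23, limma adjusted p = 2.63e-05). Glis3, a zinc-finger factor needed for normal ducts and for insulin transcription, differed by -1.41 (SE 0.21, adjusted p = 8.24e-04), from 3.75 to 3.92 on the control arrays to 2.25 to 2.75 on the others. Onecut2, a relative of Onecut1, differed by -0.90 (SE 0.20, adjusted p = 0.0189), and its call was lost without control array 1 or control array 2 (adjusted p up to 0.086). Prox1 and Glis3 are also expressed in islet endocrine cells. Endocrine markers fell on the same arrays, and their part in these differences was not tested.

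Genes of the primary cilium and of cystic disease had 1 of 6 lower (16.7%) and 0 higher, against 7.36% and 17.4% of all genes. The counts were the same at an unadjusted p under 0.05. Pkd1, which encodes polycystin-1 of the cilium, measured 4.05, 4.22 and 4.19 in the controls and 3.40, 3.18, 3.12 and 3.87 on the others (-0.92, SE 0.23, limma adjusted p = 0.0256). This call was lost without any 1 of the 3 control arrays, without the array labelled Gata6 KO 2 or 3, and on the 5 arrays with high Xist (adjusted p up to 0.137). Dcdc2a (-0.72, SE 0.27, adjusted p = 0.145) and the ciliary transport gene Ift88 (-0.60, SE 0.23, adjusted p = 0.183) did not pass, but both did after repeated quantile normalization (adjusted p = 0.0479 and 0.043), and Dcdc2a also when array 3 of those labelled Gata6 KO was left out (adjusted p = 0.0261).

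Mucin, trefoil factor and surface genes had 5 of 14 higher (35.7%) and 3 lower (21.4%), against 17.4% and 7.36% of all genes. With so few genes these shares are a description only. Tspan8, a tetraspanin of epithelial membranes, measured 4.19, 3.61 and 3.05 in the controls and 1.66, 2.74, 1.36 and 1.98 on the arrays labelled Gata6 KO (-1.85, SE 0.33, limma adjusted p = 0.00232). Clu, which encodes the secreted chaperone clusterin, measured 8.27, 8.82 and 8.86 in the controls and 9.96, 9.67, 9.26 and 9.31 on the others (0.73, SE 0.22, adjusted p = 0.00907). The Clu call was lost after centring, after repeated quantile normalization and without control array 1 (adjusted p up to 0.0884). Lcn2, an iron-siderophore binding protein of epithelia and of neutrophils, differed by 0.95 (SE 0.27, adjusted p = 0.00875), from 1.41 to 1.58 on the control arrays to 1.99 to 3.33 on the others.

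**Figure D3:**
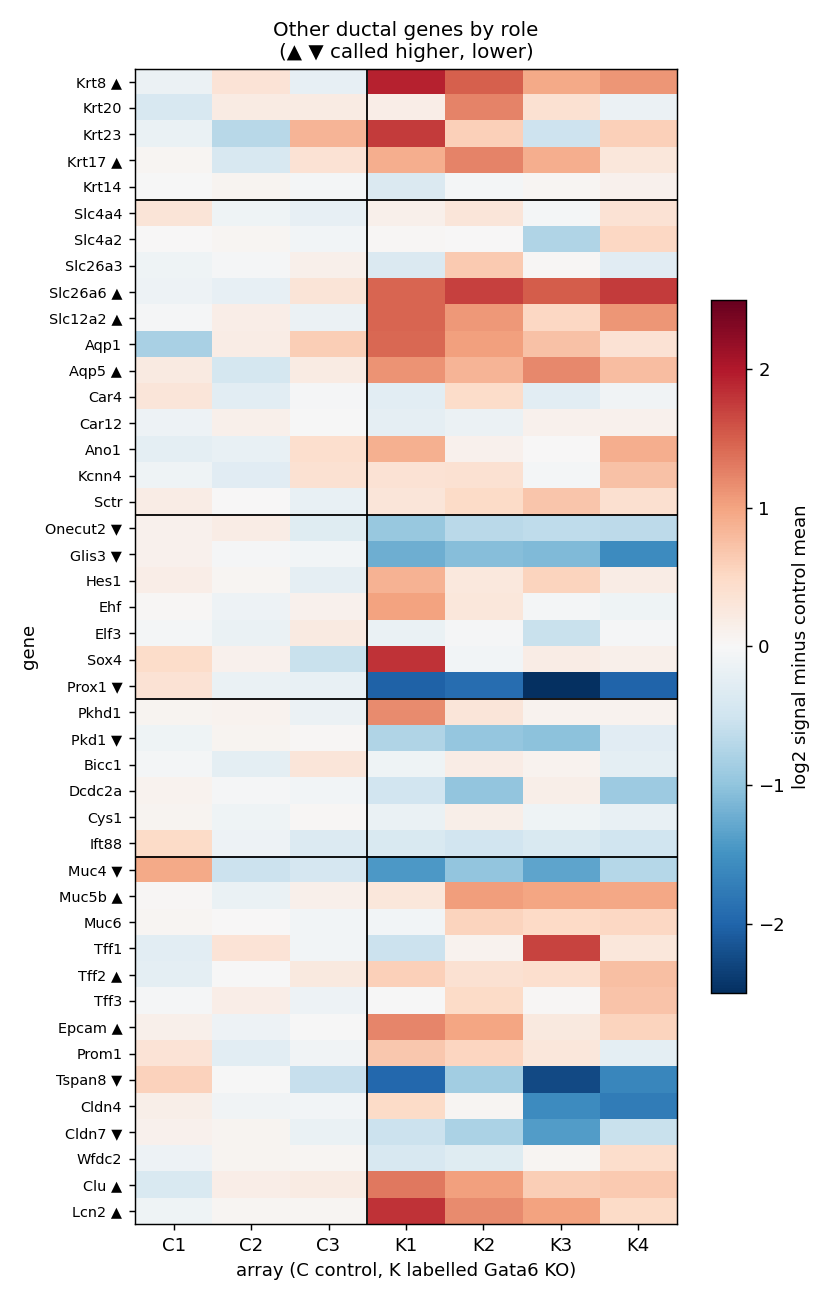
Log2 signal of 44 further ductal genes minus each gene's mean over the control arrays (colour), by array (columns, C control and K labelled Gata6 KO), in 5 blocks by role: keratins, transport, transcription factors, cilium, and mucins and surface. Triangles mark the 10 genes past the threshold upward and the 7 past it downward; transport genes that passed are all red and transcription factors that passed are all blue on K1 to K4.

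Markers of the other cells that an islet preparation can hold also differed on the same arrays. Their counts are from the fit without centring and stand beside 17.4% of all genes higher and 7.36% lower. After centring 8.43% of all genes were higher and 12.5% lower, and these lists were not counted there. The mean log2 signal of 21 measured acinar genes was 10.30 to 10.42 on the control arrays and 11.11 to 11.29 on the arrays labelled Gata6 KO, and 14 of the 21 (66.7%) were higher. The unshifted difference of this mean, 0.84, was 0.61 after centring and 0.40 after repeated quantile normalization. Ctrb1 and Cela1, the acinar genes with the highest signals, differed by -0.11 (SE 0.14) and -0.14 (SE 0.14), and their signals of 13.12 to 13.54 lie near the top of the scale. The endocrine mean was 8.09 to 8.59 and then 4.82 to 6.42, with 18 of 19 genes (94.7%) lower. For Sst and Gcg, those with the highest signals, the differences were -2.38 (SE 0.35) and -2.59 (SE 0.66). The mesenchymal mean was 3.13 to 3.90 and then 3.45 to 5.34, with 6 of 10 genes (60%) higher. Of the pair with the highest signals, Dcn differed by 1.87 (SE 0.70, limma adjusted p = 0.0478), while Rgs5 lay lower on every array labelled Gata6 KO without passing (-1.16, SE 0.46, adjusted p = 0.128). The macrophage mean was 2.45 to 2.71 and then 2.81 to 4.01, with 5 of 12 (41.7%) higher. Lyz2 differed by 2.41 (SE 0.63, adjusted p = 0.00889) and C1qb by -0.40 (SE 0.47, adjusted p = 0.752), so these 2 leading genes did not share a sign. The endothelial mean was 4.29 to 4.69 and then 3.63 to 4.18, with 4 of 10 (40%) lower, among them Plvap (-1.57, SE 0.33, adjusted p = 0.00758) and Kdr (-1.47, SE 0.23, adjusted p = 0.00124). The other 6 did not pass, so this list did not fall as a whole. For 5 of the 10 the arrays labelled Gata6 KO lay fully below the controls and for 1, Vwf, fully above (0.38, SE 0.20, limma adjusted p = 0.0619). Pecam1 differed by 0.36 (SE 0.30, adjusted p = 0.216) and Cdh5 by -0.14 (SE 0.38, adjusted p = 0.971). Of 8 named red blood cell genes only 2 were measured, Car1 and Slc4a1, and neither passed. At an unadjusted p under 0.05, 1 of the 2 was higher and 0 lower, against 26.4% and 11% of all genes. Their mean was 1.20 to 1.72 on the control arrays and 1.89 to 2.07 on the others, without overlap, at low signals. No marker of these lists had a mean at or below 0. Krt18, Krt8 and Muc1 rose on the arrays where the acinar mean was higher, and the part of acinar RNA in their rise was not tested. Nor was it tested for Car2 and the further ductal genes that were higher. Among these, Tff2 and Clu had mean signals at the 99.9th and 99.5th percentiles of all genes. For Krt7 and the further ductal genes that were lower, the part of the lower endocrine signals was not tested either.

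The mean of the 8 duct markers was 3.76 to 4.24 in the controls and 4.24 to 4.63 on the arrays labelled Gata6 KO, and control array 3 and the array labelled Gata6 KO 4 had practically the same mean. The array labelled Gata6 KO 1 was the highest of its group for 4 of the 8 markers (Krt19, Krt7, Krt18 and Onecut1) and the lowest for 0. Its mesenchymal and macrophage means, 5.34 and 4.01, were also the highest of any array. The array labelled Gata6 KO 4 was the lowest of its group for 4 markers (Krt18, Sox9, Onecut1 and Cftr) and the highest for Muc1.

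**Figure D4:**
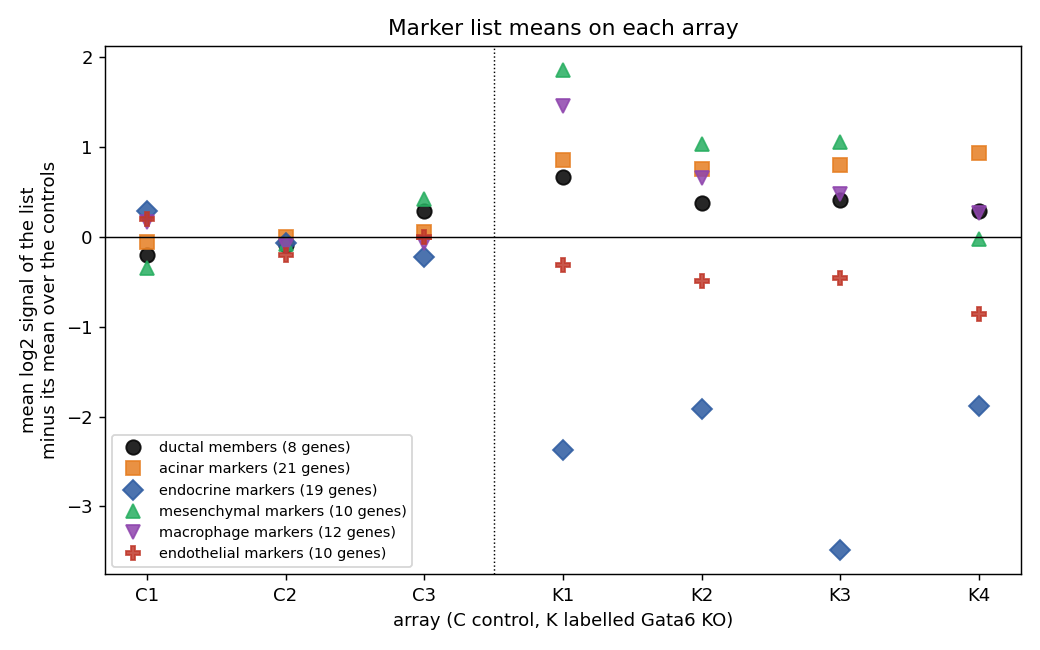
Mean log2 signal of each marker list on each array, minus that list's mean over the 3 control arrays (y axis), for duct markers (black circles) and 5 lists of other cells, with the number of measured genes in the key. On K1 to K4 the acinar list lies above the controls and the endocrine list below, while the duct markers of control array 3 and of K4 are level.

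**Figure D5:**
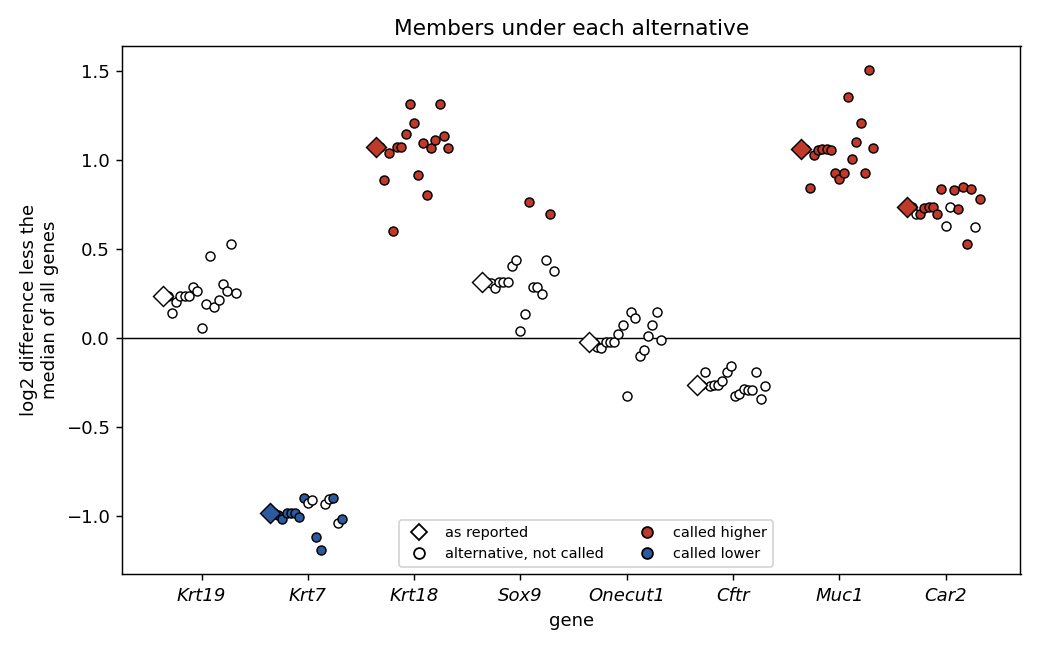
Log2 difference of each duct marker, less the median difference of all genes in the same fit (y axis), as reported (diamond) and under the 17 alternatives (circles; 16 for Cftr), filled where limma's adjusted p was under 0.05. Krt18 and Muc1 are filled throughout, Krt7 and Car2 lose their fill under 5 alternatives each, and Sox9 gains it under 2.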

How the data were processed

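Each array carried biotin-labelled cDNA made from total islet RNA, on Affymetrix mouse gene arrays, per the labels' protocols. Log2 values were normalized and summarised by the authors with RMA, and deposited in that form. The submitters' processing notes give this and also name Transcriptome Analysis Console. Versions and genome build are not given in the sources used here. Medians over all 41345 probe sets still differed, at 1.72 to 1.78 on the control arrays and 1.89 to 2.11 on the others, and values ran from -0.59 to 13.54. Names of probe sets came from the platform's annotation (23521 with 1 symbol, 1814 with several, 16010 unnamed here). Genes took the probe set with the highest mean over all arrays (1082 genes had several).

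All 22180 genes were fitted with limma 3.58.1 in R 4.3.3 (lmFit, eBayes with trend), without covariates, two-sided. Exact permutation tests covered 35 splits. The fit was tested on simulated data. Intervals treat the shift of 0.17 as fixed. The duct markers and lists were chosen with earlier results of these data known. Named genes were the markers, the 3 genes of smallest p in each ductal role, the 2 of highest signal in each other list, and Gata6. Xist and the further genes of the closing observations were chosen after their values were seen. The numbers in the labels were not taken as pairing. The deviations of same-numbered arrays correlated by 0.0976, 0.0043 and 0.115. Differently numbered arrays were not set beside them, so these values cannot decide whether the arrays were paired. Both arrays with low Xist carry the number 3. Figures used matplotlib 3.10.9.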

Additional observations from a re-analysis of the deposited data

Results flagged for a closer look

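Of 28 sets of 4 arrays labelled Gata6 KO that were examined (duct markers, named further genes and list means), 2 had 1 array far from the rest, where chance gives about 1 in 20. Both were the array labelled Gata6 KO 1. Its Krt7 log2 signal was 4.33 against 3.49 to 3.56 on the other 3, which is close to control array 3, and without it the unshifted Krt7 difference went from -0.82 to -1.02. Its Onecut2 log2 signal was 1.43, with the nearest other array at 1.69.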

How the results depend on the processing

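The 17 alternatives were 15 planned ones and 2 added after the data were seen, the 5 arrays with high Xist and the Xist level as a block; a threshold of 0.01 was tried for counts. Krt18 and Muc1 kept direction and call in all 17. After centring and after repeated quantile normalization 1870 and 2017 of all genes were higher and 2769 and 2892 lower, 5 and 5 of the wider ductal genes were higher, the unshifted Car2 difference was 0.67 in both without passing, and Onecut1 turned to -0.085 and -0.080. On the 5 arrays with high Xist 2231 of all genes were higher and 1106 lower, and 4 wider ductal genes were lower. Krt7 (-0.86) and Car2 (0.81) lost their calls there and Sox9 (0.88) gained one. Of the duct markers 0 were lower there by limma, against 1 at an unadjusted p under 0.05. At an adjusted p under 0.01, 1855 genes were higher and 942 lower, and 2 duct markers were higher and 0 lower. Leaving out 1 array gave 2246 to 3812 genes higher and 1019 to 1801 lower, 2 to 4 duct markers higher and 0 to 1 lower, and 5 to 10 wider ductal genes higher and 3 to 7 lower. Over the same fits the unshifted difference ran from -1.02 to -0.74 for Krt7, from 0.20 to 0.94 for Sox9, from -0.17 to 0.31 for Onecut1 and from 0.69 to 1.02 for Car2. Fits without an array have fewer samples; other causes were not tested. With the replicate number as a block, which leaves the array labelled Gata6 KO 4 without weight, the calls of the 8 duct markers did not change (Krt7 -0.76, Krt18 1.46, Muc1 1.07, Car2 0.98). When probe sets of 1 gene were averaged the unshifted Krt18 difference was 0.77 instead of 1.24. Without the 40% of genes of lowest mean Cftr was not tested, nor were Krt17, Onecut2 and Muc5b among the further ductal genes that passed. Low signals limit Cftr, Car2, Krt17, Onecut2, Muc5b and Lcn2.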

Other observations

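Several further ductal genes, named after their values were seen, differed among the arrays labelled Gata6 KO more than between the groups. Cldn4, a tight junction claudin, measured 5.02, 4.79 and 4.80 in the controls, 5.35 and 4.91 on the arrays labelled Gata6 KO 1 and 2, and 3.30 and 3.11 on arrays 3 and 4 (-0.87 relative to all genes, SE 0.44, limma adjusted p = 0.266). Tff1, a trefoil peptide gene, reached 5.53 on the array labelled Gata6 KO 3 against 3.30 to 4.17 on the other 6 arrays. Sox4 and the cilium gene Pkhd1 were highest on the array labelled Gata6 KO 1, at 5.72 and 3.18, against at most 4.35 and 2.29 elsewhere. For Pkhd1 the groups still did not overlap, at 1.84 to 2.07 on the control arrays and 2.08 to 3.18 on the others. Its difference did not pass (limma adjusted p = 0.274).

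The mucin and trefoil genes past the threshold also split by direction. Tff2 measured 11.38 to 11.87 on the control arrays and 12.00 to 12.37 on the others (0.37, SE 0.17, limma adjusted p = 0.0372), and Muc5b 1.27 to 1.57 and then 1.73 to 2.48 (0.65, SE 0.22, adjusted p = 0.0167). Muc4 fell from 2.60 to 4.08 on the control arrays to 1.70 to 2.41 on the others (-1.27, SE 0.33, adjusted p = 0.0238). Control array 1 alone gave the 4.08, with 2.60 and 2.70 on control arrays 2 and 3. The adhesion molecule gene Epcam differed by 0.58 (SE 0.24, adjusted p = 0.0358) and Cldn7 by -0.99 (SE 0.24, adjusted p = 0.0234). The calls of Tff2, Muc5b and Epcam were lost after centring and after repeated quantile normalization. The 5 wider ductal genes still higher in each were Krt8, Slc26a6, Slc12a2, Aqp5 and Lcn2. Relative to all genes, the limma interval of Tff2 ran from -0.0032 to 0.742, which includes no difference.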
